A study of Rattus norvegicus with 6 samples.

Results

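Among the 31715 transcripts counted in basilar artery smooth muscle cells (BASMCs), 6 abundant transcripts that rose and fell together from library to library are described here. The 6 were chosen by their abundance and by their joint variation in these libraries, and they are likely mRNAs of the mitochondrial genome. The deposited table gives Ensembl transcript identifiers without gene names, and 0 of the 31715 matched an entry of the RefSeq gene table of GRCr8. Their identity is therefore stated as likely and no gene name is given to any of the 6. They are ENSRNOT00000050156.3, ENSRNOT00000049683.3, ENSRNOT00000042098.3, ENSRNOT00000046108.3, ENSRNOT00000043693.3 and ENSRNOT00000042928.3. All 6 had counts in all 6 libraries, so none was lost to a filter on low counts. RNA came from 3 control rats fed normal chow and from 3 high-salt rats fed the same chow with 4% NaCl by weight added, over 4 weeks. The animals were male Spraque-Dawley rats bought at 6 weeks of age, and each library held the cells of a single rat. The high-salt rats were taken once their systolic blood pressure had risen. In both groups the endothelium of the basilar artery was removed with wires, and mRNA was taken by poly(A) selection. Rats lived 3 to a cage, and how the cages fell to the diets is not given in the sources used here. Without gene names, the markers of smooth muscle and of other cell types were not checked.

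The mitochondrial genome is a small circular DNA that encodes core subunits of the respiratory chain complexes I, III and IV and of ATP synthase. Its strands are transcribed as long precursors, which are cut into rRNAs, tRNAs and mRNAs, and most of the mRNAs carry short poly(A) tails. They are therefore present in poly(A)-selected libraries, often among the most abundant transcripts. In arterial smooth muscle, oxidative phosphorylation supplies much of the ATP used for contraction.

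Estimated counts summed to 12896098, 24718338 and 23198636 in control replicates 1, 2 and 3. The totals in the high-salt diet group were 16159272, 19522923 and 20589033, in the same order of replicates. The libraries numbered 1 had the fewest counts of their groups, yet the most transcripts detected. Control replicate 1 had 21408 detected transcripts and high-salt replicate 1 had 21079, against 17019 to 20328 in the others. These 2 libraries stood apart across the table. Of the 1841 transcripts with a mean of at least 100 CPM (counts scaled to a library total of 1000000), 723 (39.3%) were higher in both of them than in each of the other 4 libraries. Another 448 (24.3%) were lower in both. The main results are therefore given with and without the libraries numbered 1.

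Together the 6 transcripts held between 1.06% and 9.75% of all counts, a 9.22-fold range. Control replicates 1, 2 and 3 had summed shares of 2.40%, 4.29% and 9.75%. In the high-salt diet group it was 1.06%, 4.73% and 5.97%, respectively. High-salt replicate 1 and control replicate 1 had the lowest shares, control replicate 3 had the highest, and the groups overlapped. The widest 95% Wilson interval of a share was 9.74% to 9.77%, in control replicate 3. Such an interval covers counting error only and says nothing about the spread between rats. The control mean was 5.48% ± 3.82 (SD, n = 3) of counts and the high-salt mean was 3.92% ± 2.55 (SD, n = 3). The difference of -1.56 percentage points was smaller than the spread within either group. Without both libraries numbered 1 the difference was -1.67 percentage points. Without high-salt replicate 1 alone it was -0.128 percentage points, and without control replicate 1 alone it was -3.10 percentage points. Leaving out control replicate 3 alone turned its sign, to 0.578 percentage points. In bulk RNA, fewer cells rich in these transcripts and less of this RNA per cell cannot be told apart. The 2 libraries with the lowest shares were also those with the fewest counts and the most transcripts detected, and the part of depth and detection in the shares was not tested.

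ENSRNOT00000050156.3 was the member with the most counts when averaged over the libraries, at rank 2 of all transcripts by mean CPM. Its level was 2948, 17034 and 31543 CPM in control replicates 1, 2 and 3, and 2650, 18743 and 20472 CPM in the high-salt replicates. The libraries numbered 1 were the lowest of both groups, and the other 4 libraries were 7.62-fold higher on the geometric mean. It ranked first among all transcripts in control replicate 3 but 29th in control replicate 1. ENSRNOT00000049683.3 was present at 7324, 7717 and 18634 CPM in the control libraries and at 2708, 7729 and 10810 CPM in the high-salt libraries. Here control replicate 1 lay close to replicate 2 of both groups, and high-salt replicate 1 alone was low. ENSRNOT00000046108.3 showed the smallest range, 5.97-fold, with 5551, 4198 and 11460 CPM in the control libraries and 1921, 4835 and 6221 CPM in the high-salt libraries. In this transcript alone of the 6, control replicate 1 was above both libraries numbered 2.

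ENSRNOT00000042098.3 had 3558, 5710 and 12475 CPM in the control libraries and 1503, 6219 and 8879 CPM in the high-salt libraries. ENSRNOT00000043693.3 had 2745, 4607 and 11122 CPM in the control libraries and 867, 5085 and 6635 CPM in the high-salt libraries. ENSRNOT00000042928.3 had 1853, 3586 and 12299 CPM in the control libraries and 934, 4738 and 6641 CPM in the high-salt libraries. In these 3 transcripts high-salt replicate 1 was lowest, control replicate 1 next and control replicate 3 highest, and the range over libraries was 8.30-fold, 12.8-fold and 13.2-fold, respectively. The largest range of the 6 was that of ENSRNOT00000042928.3, and it rested on high-salt replicate 1 and control replicate 3. The counts were not divided by transcript length, so levels of different members are not compared with each other. By mean CPM the member with the fewest counts, ENSRNOT00000042928.3, stood at rank 13 with 5009 CPM. The transcripts at ranks 12 and 14, which are not members, had 5095 and 4492 CPM.

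**Figure D1:**
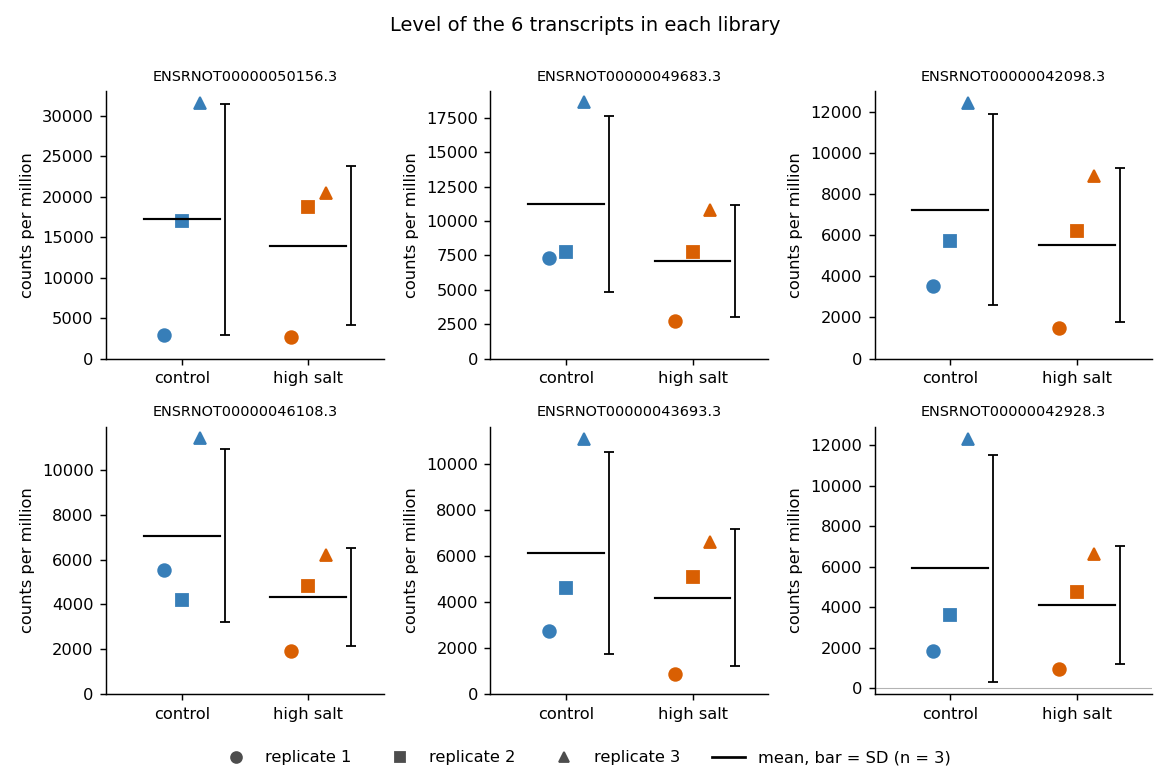
Level of each of the 6 transcripts in CPM (y axis, linear) in the control and high-salt libraries, with the replicate number as the marker, the mean as a line and the SD as a bar (n = 3 per group). In all 6 panels the groups overlap, high-salt replicate 1 is at the bottom, and control replicate 3 is at the top.

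The comparison of the diets addressed which transcripts change in BASMCs with high salt intake. None of the 6 transcripts differed between the groups beyond the spread of the replicates. Under a negative binomial model, edgeR's exact test was run over 24253 transcripts. It gave 0 of the 6 members an adjusted p under 0.05, where 1 transcript of all tested, or 0.00412%, passed. At an unadjusted p under 0.05 it gave again 0 of 6, where 1.24% of all tested transcripts passed, 0.664% being lower with high salt. The quasi-likelihood test of edgeR and DESeq2 likewise gave 0 of 6 at an adjusted or unadjusted p under 0.05. Over all 17915 transcripts in these tests, 0% and 0.0335% passed after adjustment, and 0.787% and 1.24% passed without it, so 0 of 6 is no result about the members. In the quasi-likelihood test blocked on the replicate number (replicate block), 0 of the 6 members and 0 of 17915 transcripts passed an adjusted p of 0.05, and the lowest unadjusted p of a member was 0.128. At an unadjusted p under 0.05, 1.83% of all transcripts passed there. In that blocked fit ENSRNOT00000043693.3 had a log2 fold change of -0.84, the farthest from 0 of the 6. The control and high-salt levels overlapped for 6 of 6 members, while they did not overlap for 5.32% of all tested transcripts.

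All 6 fitted log2 fold changes were below 0, with a median of -0.56 against -0.08 over all tested transcripts. Of all tested transcripts, 25.9% had a log2 fold change lower than the median of the members. Without the block, the value farthest from 0 was that of ENSRNOT00000046108.3, at -0.76, for which edgeR's exact test gave an unadjusted p of 0.247 and an adjusted p of 1. The value nearest to 0 was that of ENSRNOT00000050156.3, at -0.31, where the same edgeR test gave an unadjusted p of 0.746 and an adjusted p of 1. ENSRNOT00000049683.3, ENSRNOT00000043693.3, ENSRNOT00000042928.3 and ENSRNOT00000042098.3 lay between them at -0.71, -0.58, -0.55 and -0.42, respectively. As a measure of error, the difference of the mean log2 CPM was -0.74 ± 0.67 (SE, n = 3 per group) for ENSRNOT00000046108.3 and -0.21 ± 1.41 (SE, n = 3 per group) for ENSRNOT00000050156.3. Neither difference was much larger than its SE. The members share the libraries, so their common sign does not add up to 6 separate observations.

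For 4 of the 6 members the direction rested on single libraries. Without control replicate 3, 4 of the 6 log2 fold changes were above 0, namely 0.57 for ENSRNOT00000042928.3, 0.50 for ENSRNOT00000050156.3, 0.23 for ENSRNOT00000042098.3 and 0.17 for ENSRNOT00000043693.3. Without high-salt replicate 1, those of ENSRNOT00000050156.3 and ENSRNOT00000042098.3 were above 0, at 0.20 and 0.04. ENSRNOT00000049683.3 and ENSRNOT00000046108.3 kept values below 0 whichever single library was left out, the nearest to 0 being -0.14 and -0.24. With both libraries numbered 1 left out, the 6 values lay between -0.50 and -0.26. The adjusted p of edgeR was 1 for each member in these fits.

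**Figure D2:**
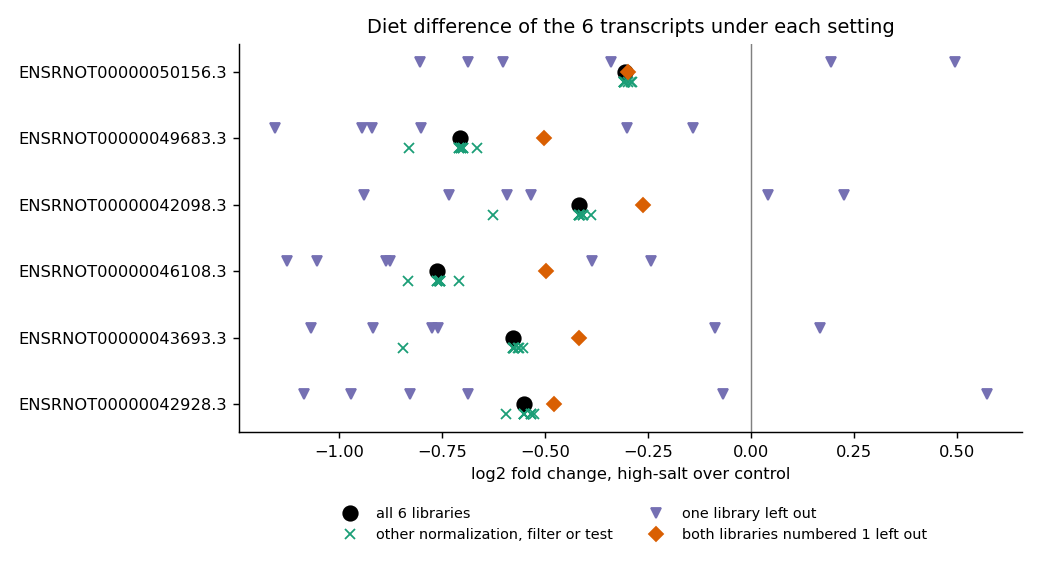
Log2 fold change of each of the 6 transcripts (x axis, high-salt over control) under each setting, with all 6 libraries as black circles, other normalizations, filters or tests as crosses, single libraries left out as triangles, and both libraries numbered 1 left out as diamonds. Leaving out control replicate 3 moves 4 transcripts above 0, while the crosses stay below 0.

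The levels followed the replicate number more than the diet. Within the same-numbered pairs, the summed share of the high-salt library minus that of the control library was -1.34, 0.450 and -3.79 percentage points for the numbers 1, 2 and 3, with a sign that differed between pairs. The means of the pairs were 1.73%, 4.51% and 7.86% of counts. Of the variance of the summed log2 level, 84.7% lay between replicate numbers and 8.13% between diets, where the degrees of freedom alone give 40% and 20%. Among the members, the part between replicate numbers was lowest for ENSRNOT00000046108.3, at 55.1%, and highest for ENSRNOT00000050156.3, at 98.2%. The part between diets ran from 0.571% for ENSRNOT00000050156.3 to 23.1% for ENSRNOT00000046108.3. This pattern was not particular to the members, since the median over the 1841 transcripts with at least 100 CPM was 76.0% between replicate numbers and 5.13% between diets. Without the libraries numbered 1, 68.8% of the variance of the summed level lay between the numbers 2 and 3 and 9.51% between diets, where the degrees of freedom alone give 33.3% each. These values describe the variation that chose the members and were not tested.

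The members were chosen for varying together in these libraries, so the size of their variation is a description and no finding. The SD of log2(CPM + 1) over the 6 libraries ran from 0.84 for ENSRNOT00000046108.3 to 1.54 for ENSRNOT00000050156.3, against a median of 0.49 over the 1841 transcripts. In the 4 libraries numbered 2 and 3, the highest level was 1.85 to 3.43 times the lowest for the members. The median was 1.33 times for the 1828 abundant transcripts outside the first 13 rows of the table, and 180 of these (9.85%) reached the narrowest range of the members.

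The ratios between the members also differed between libraries. The 15 log2 ratios between pairs of members had a median SD of 0.55 over the 6 libraries, with a lowest value of 0.18 and a highest of 1.14. The 4950 pairs among the 100 most abundant transcripts outside the first 13 rows had a median SD of 0.85, a contrast that the choice of members for varying together fixes. The libraries numbered 1 lay outside the range of the other 4 libraries, on the same side, for 11 of the 15 member ratios. The diet groups overlapped for all 15. Neither count was made for the other pairs, so neither is read as a trait of the members. Of single transcripts with a mean of at least 100 CPM, 39.3% were higher and 24.3% lower in both libraries numbered 1. The 15 ratios come from 6 transcripts and are not separate observations. Without control replicate 1 alone the median SD of the member ratios was 0.35. Without both libraries numbered 1 it was 0.19, and 0.33 for the other pairs.

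The ratio that varied most was that of ENSRNOT00000050156.3 to ENSRNOT00000046108.3. It was 0.531, 4.06 and 2.75 in control replicates 1, 2 and 3, and 1.38, 3.88 and 3.29 in the high-salt replicates. Both libraries numbered 1 were below the other 4, and control replicate 1 was the only library with fewer counts of ENSRNOT00000050156.3 than of ENSRNOT00000046108.3. The steadiest ratio was that of ENSRNOT00000049683.3 to ENSRNOT00000046108.3, between 1.32 in control replicate 1 and 1.84 in control replicate 2. The pair with the highest correlation of log2 CPM, ENSRNOT00000042098.3 and ENSRNOT00000043693.3, had r = 0.997 over the 6 libraries. The lowest was r = 0.687, for ENSRNOT00000050156.3 with ENSRNOT00000046108.3. Over the 4 libraries numbered 2 and 3, r of the 15 member pairs had a median of 0.987, against 0.939 over all 6 libraries. The 4950 pairs of other abundant transcripts had a median r of 0.0347 over the 6 libraries. The correlations are descriptive, because the members were chosen for varying together and the values of a library share its depth.

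As a share of the counts of the 6, ENSRNOT00000050156.3 made up 12.3% in control replicate 1. It held 42824 of the 171016 member counts of high-salt replicate 1, and 32.3% to 39.8% in the other 4 libraries. ENSRNOT00000046108.3 made up 23.1% and 18.1% in the libraries numbered 1, and 9.80% to 11.7% in the others. ENSRNOT00000049683.3 likewise held 30.5% and 25.6% in the libraries numbered 1, and 16.3% to 19.1% in the others. These 3 transcripts therefore carried most of the shift in composition. The share of ENSRNOT00000042098.3 stayed between 12.8% and 14.9% in all 6 libraries, although its level in CPM varied 8.30-fold.

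**Figure D3:**
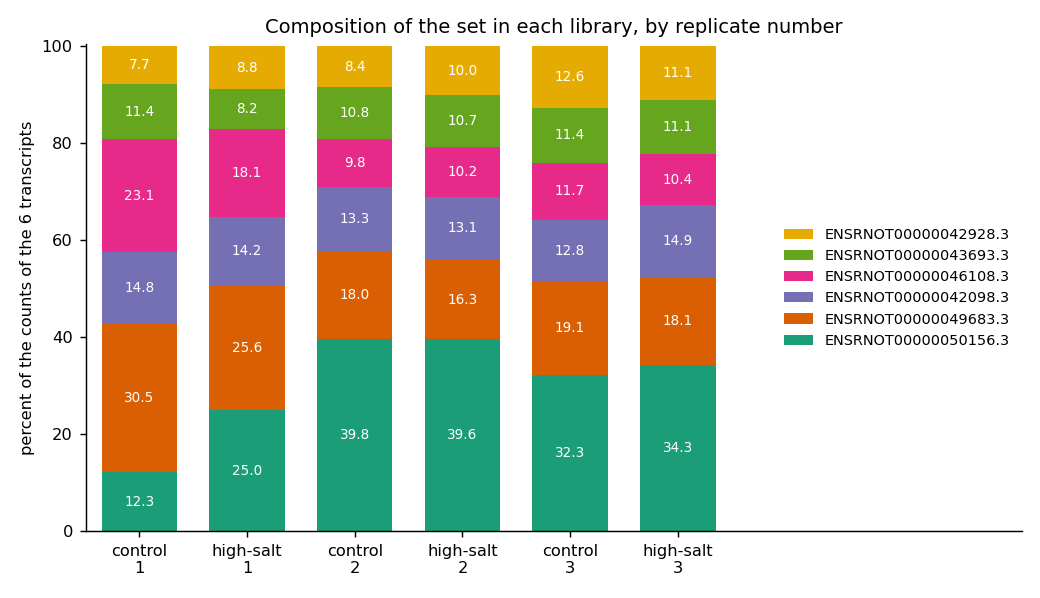
Percent of the summed counts of the 6 transcripts (y axis, 0 to 100) that each of them made up in each library, with the libraries ordered by replicate number. ENSRNOT00000050156.3 makes up a smaller part in both libraries numbered 1 than in the other 4, where it holds 32.3% to 39.8%.

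The position of the members in the table was not used to choose them. They stood in rows 3, 4, 6, 7, 10 and 13, within the first 13 of 31715 rows. The other 7 of these rows followed the members closely, a block that was noticed after the values were seen. Among the 1835 other transcripts with a mean of at least 100 CPM, the 6 with the highest Pearson r to the summed level of the members were all from these rows, and the remaining one was 11th. Their r over the 6 libraries lay between 0.945 and 0.998, and the highest r outside the first 13 rows was 0.963. The closest was ENSRNOT00000040993.4 in row 2, with 1068, 2406 and 8087 CPM in the control libraries and 417, 2961 and 4065 CPM in the high-salt libraries. Next was ENSRNOT00000051268.3 in row 12, with r = 0.993 and levels of 169, 411 and 1179 CPM in the control libraries and 50.2, 558 and 842 CPM in the high-salt libraries. Row 14 had a mean of 4.84 CPM and r = 0.0034. The members ENSRNOT00000046108.3 and ENSRNOT00000050156.3 had a lower r with the summed level than any of the other 7 rows, at 0.899 and 0.933. Both are themselves part of that sum.

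In all of the first 13 rows high-salt replicate 1 was the lowest library, and the 4 libraries numbered 2 and 3 stood in the order control replicate 2, high-salt replicate 2, high-salt replicate 3 and control replicate 3 from low to high. It was also the order of 31 of the 1828 abundant transcripts outside these rows (1.70%). The order was read from the 13 rows themselves, so this contrast is a description and supports nothing. Over these 4 libraries alone, the r of the other 7 rows with the members lay between 0.861 and 0.999, but 1 of the 7 was then among the 11 closest transcripts. The drop in the libraries numbered 1 was not equal within the block. The other 4 libraries were 1.89-fold higher for ENSRNOT00000046108.3 in row 6 and 50.5-fold higher for row 8, which had 33.3 and 15.6 CPM in the libraries numbered 1 and 800 to 1892 CPM in the others. The 13 rows together held 1.23% of counts in high-salt replicate 1 and 12.5% in control replicate 3. Their share averaged 6.80% ± 5.04 (SD, n = 3) over the control libraries and 4.90% ± 3.29 (SD, n = 3) over the high-salt libraries. The groups overlapped in each of the 13 rows.

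**Figure D4:**
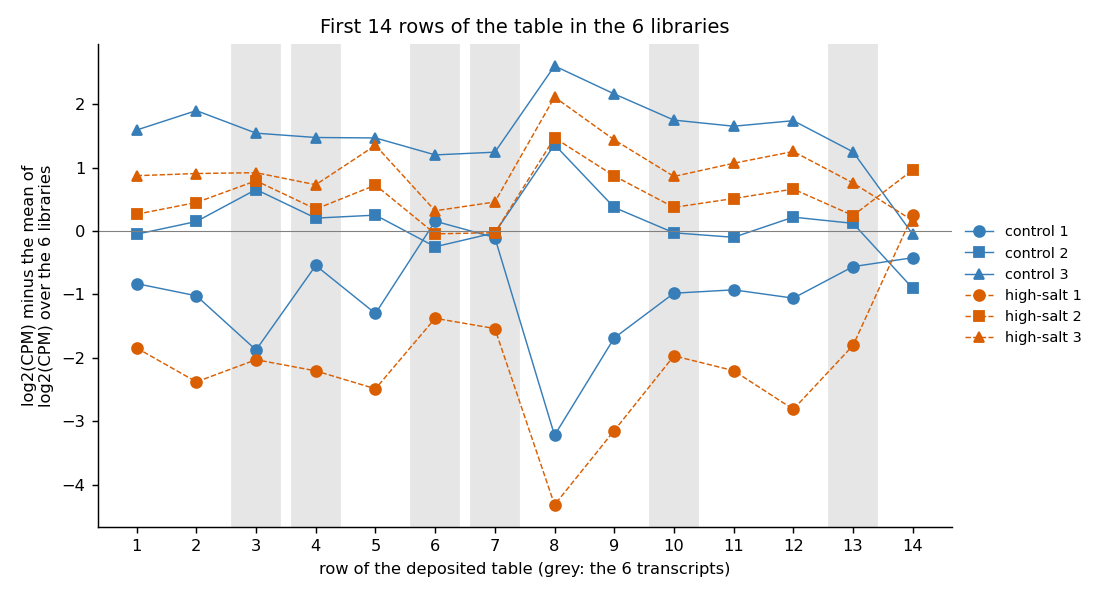
Log2 CPM of the first 14 rows of the table (x axis, row number, the 6 transcripts in grey), as the difference from the mean of the 6 libraries in that row (y axis). In rows 1 to 13 control replicate 3 is the highest line and high-salt replicate 1 the lowest, and row 14 does not follow them.

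Across the other abundant transcripts, the correlation with the members was more often negative. The median r was -0.43, with 160 of 1835 transcripts (8.72%) under -0.9 and 65 (3.54%) over 0.9. Over the 4 libraries numbered 2 and 3 the median r was -0.32, with 181 of 1834 transcripts (9.87%) under -0.9 and 51 (2.78%) over 0.9. CPM values of a library add up to a fixed sum, and the part of this in the negative correlations was not tested. Taking the 6 members out of the library size would raise every other CPM by a factor of 1.01 in high-salt replicate 1 and of 1.11 in control replicate 3. With the members in the table, the TMM factors of edgeR ran from 0.915 in control replicate 1 to 1.13 in high-salt replicate 1. Fitted without the libraries numbered 1, they ran from 0.981 in high-salt replicate 2 to 1.03 in control replicate 2. With the members left out of the 6 libraries, the factors of control replicate 1 and high-salt replicate 1 were 0.906 and 1.09, and 1 transcript again passed edgeR's exact test at 0.05 after adjustment.

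**Figure D5:**
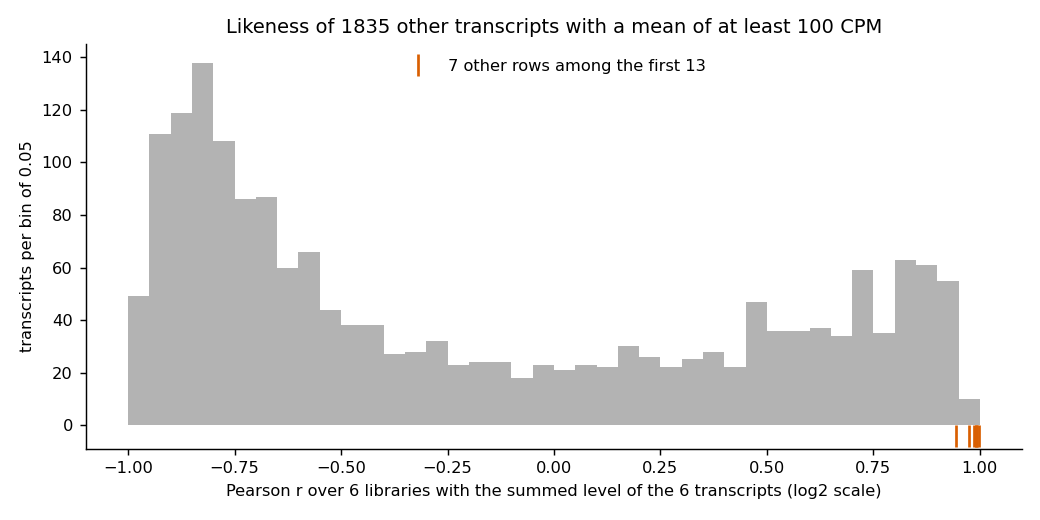
Number of transcripts (y axis) by Pearson r with the summed level of the 6 transcripts over the 6 libraries (x axis, bins of 0.05), for 1835 other transcripts with a mean of at least 100 CPM. Orange ticks mark the other 7 of the first 13 rows, between 0.945 and 0.998, while the median of all is -0.43.

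Reads that match more than 1 transcript are apportioned by Kallisto, which leaves estimated counts that are not whole. The values are given to 6 significant digits, and a decimal can be seen only under 100000 counts. Of the 36 member values, 16 were under 100000, and 15 of these were whole numbers. The exception was ENSRNOT00000046108.3 in control replicate 1, with 71589.8 counts. The transcript in row 5, just before it, had 749.153 counts in the same library, and together they had 72339 counts, a whole number to the digits given. Counts that were not whole occurred in 13660 (55.8%) of the 24481 transcripts with counts. A printed value was taken as whole if it lay within 1e-09 of a whole number.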

How the data were processed

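The data were estimated counts per transcript, which need not be whole, obtained with Kallisto and deposited by the authors for 3 control and 3 high-salt libraries. Per the submitters' processing notes, reads were trimmed with Trimmomatic and checked with FastQC, HISAT2 2.0.13 was also used, and the build was Rnor_6.0. The Kallisto version is not given in the sources used here. The 6 members and the lists were chosen with earlier results of these data known. CPM was computed from the deposited estimated counts over the library total. A pseudocount of 1 was added before log2 for the SD and variance parts of single transcripts. It was also added for their r with the members and for the pairs of other abundant transcripts. No pseudocount was used for the summed level, ratios and pair correlations of the members or for their differences of mean log2 CPM. Abundant transcripts had a mean of at least 100 CPM. Named identifiers were the 6 members and the 2 transcripts with the highest Pearson r to their summed level. Any other identifier named was chosen after its values were seen. Lists of mitochondrial genes and of cell type markers were not applied, because no identifier matched a gene name.

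Counts were rounded to whole numbers and tested with the two-sided exact test of edgeR 4.0.16 in R 4.3.3, with TMM scaling, at least 1 rounded count in all and Benjamini-Hochberg adjustment. DESeq2 1.42.0, the quasi-likelihood test, other scalings and filters, and fits without single libraries were alternatives. Leaving out both libraries numbered 1 was chosen after seeing the data. The fitting code was tested on simulated counts without differences between replicate numbers. That checks the code and says nothing about how the tests perform on these libraries. Same-numbered libraries deviated together from their group means over 21778 transcripts, with correlations of 0.590, 0.226 and 0.296 for the numbers 1, 2 and 3. The main exact test did not pair the libraries, and the fit blocked on the number was an alternative. Deviations from a group mean are tied to each other, so the agreement of the libraries numbered 1 also enters the other correlations. Control replicate 2 correlated as well with high-salt replicate 3 (0.264), and control replicate 3 with high-salt replicate 2 had 0.170, so the numbers 2 and 3 did not stand apart from each other. A pairing by number would come from the data, as the labels do not say what a number stands for. Each library is 1 rat, so the p-values of the unblocked tests measure the spread between rats of a group. That spread includes any difference between replicate numbers, which the blocked test sets aside. Wilson intervals cover counting error only. Descriptive values were computed with Python 3.11.15, pandas 2.3.3 and numpy 2.4.6.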

Additional observations from a re-analysis of the deposited data

How the results depend on the processing

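Of 90 alternative log2 fold changes of the 6 transcripts, 84 kept the sign of the reported value, 6 reversed, and 0 passed an adjusted p of 0.05 in edgeR or DESeq2. The lowest adjusted p was 0.992, in the quasi-likelihood test of edgeR with the replicate block. Leaving out single libraries gave log2 fold changes from -0.80 to 0.50 for ENSRNOT00000050156.3, -0.94 to 0.23 for ENSRNOT00000042098.3, -1.07 to 0.17 for ENSRNOT00000043693.3 and -1.08 to 0.57 for ENSRNOT00000042928.3. The values of ENSRNOT00000049683.3, from -1.16 to -0.14, and of ENSRNOT00000046108.3, from -1.13 to -0.24, kept their sign. The reversals came without control replicate 3 or high-salt replicate 1, and their cause was not tested. The difference in summed share ran from -3.10 to 0.578 percentage points without single libraries.

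The number of transcripts past an adjusted p of 0.05 was 1, and it was 2 with filterByExpr, 0 with the quasi-likelihood test of edgeR, 6 with DESeq2, 3 to 12 without single libraries and 31 without both libraries numbered 1. At an unadjusted p under 0.05, the 140 higher transcripts became 62 with filterByExpr, 60 with the quasi-likelihood test, 83 to 241 without single libraries and 275 without both libraries numbered 1. The 161 lower transcripts became 79, 81, 110 to 281 and 232 in the same settings. The quasi-likelihood and DESeq2 fits ran on the 17915 transcripts that filterByExpr kept, in place of 24253, so filter and test changed together there. With the filter alone, the counts of higher and lower transcripts were already 62 and 79. On the same 17915 transcripts, DESeq2 gave 107 higher and 116 lower at an unadjusted p under 0.05. The quasi-likelihood test with the replicate block gave 146 and 181. The cause of the other changes was not tested.

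With the replicate block, the quasi-likelihood test gave 0 transcripts past an adjusted p of 0.05 and changed no call of a member. It moved the log2 fold change of ENSRNOT00000043693.3 from -0.58 to -0.84, that of ENSRNOT00000042098.3 from -0.42 to -0.63 and that of ENSRNOT00000049683.3 from -0.71 to -0.83. Without both libraries numbered 1, the median SD of the member ratios was 0.19 in place of 0.55, and 1 of the 7 other first rows was among the 11 closest transcripts. Without the pair numbered 1, 68.8% of the variance lay between replicate numbers.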

Other observations

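Among the 1841 transcripts with a mean of at least 100 CPM, 6 were at least 10-fold higher and 23 at least 10-fold lower in both libraries numbered 1 than in each of the other 4. ENSRNOT00000016859.5, chosen after its values were seen, had 12377 CPM in control replicate 1 and 5061 CPM in high-salt replicate 1. Its levels were 27.9 and 34.4 CPM in control replicates 2 and 3, and 10.4 and 37.9 CPM in high-salt replicates 2 and 3.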
